A study of Mus musculus and other sequences with 2 samples.

Results

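The mouse miR-290 to miR-295 cluster is a run of miRNA hairpins, of which those on the plus strand are made from 1 primary transcript. Each hairpin can yield a mature miRNA from its 5′ side (5p arm) and another from its 3′ side (3p arm). On a 2-card TaqMan rodent miRNA array, 14 of the 750 miRNA assays belonged to this cluster, under 13 names. They were every assay whose name began with mmu-miR-290 to mmu-miR-295, with any letter or arm suffix, and did not end in #, the mark that the array gives to the minor arm of a hairpin. The 7 assays of card A were mmu-miR-290-3p, mmu-miR-291a-3p, mmu-miR-291b-5p, mmu-miR-292-3p, mmu-miR-293, mmu-miR-294 and mmu-miR-295. The 7 assays of card B were mmu-miR-290, mmu-miR-290-5p, mmu-miR-291-3p, mmu-miR-291-5p, mmu-miR-291b-3p, mmu-miR-292-5p and a second assay for mmu-miR-292-3p. The 3 # assays of the cluster, for miR-293, miR-294 and miR-295, served as the 5p partners of these hairpins and were not counted as members. The prefix mmu- is left out from here on.

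Both samples were cell-free culture media and not embryos. The conditioned media came from 1 microdroplet of 8 μL in which 25 pooled CD1 mouse embryos, labelled as blastocysts, had been cultured for 17 h, from 99 to 116 h after human chorionic gonadotropin (hCG). The blank media came from 1 microdroplet cultured for the same 17 h without embryos, and both were BSA-free KSOM with 0.1% polyvinylacetate, as the labels name it. From each, 6 μL was lysed, reverse transcribed with the primer pool of each card and pre-amplified for 12 cycles, so that each assay gave 1 well per medium and no test between media or between arms was possible. In media, the number of embryos that release a sequence and the amount released by each cannot be told apart.

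The hairpins of a miRNA cluster are cut from the primary transcript by Drosha and from their loops by Dicer. Of the resulting duplex, 1 strand is usually kept in an Argonaute protein and the other is degraded, and which arm prevails differs from hairpin to hairpin. The kept strand finds target mRNAs mainly through its seed, bases 2 to 8 from the 5′ end. The miR-290 to miR-295 miRNAs are among the most abundant of mouse embryonic stem cells and of the early mouse embryo. Those with bases AAGUGC in the seed, such as miR-291a-3p, miR-294 and miR-295, shorten the G1 phase of embryonic stem cells by repressing cell cycle inhibitors such as Cdkn1a.

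Of the 14 assays, 9 were matched by name to a mature sequence in RefSeq, as were all 3 # assays. Both miR-292-3p assays, miR-291-3p, miR-291-5p and miR-290 were not matched. The mature 3p sequences are shown because 8 of the 9 3p assays were detected, and because their seeds sort them into groups. Capitals mark bases 2 to 8, and all are read 5′ to 3′.
miR-290a-3p: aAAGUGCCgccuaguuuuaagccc
miR-291a-3p: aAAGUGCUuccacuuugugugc
miR-291b-3p: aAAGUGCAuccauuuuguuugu
miR-293-3p: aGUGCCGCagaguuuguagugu
miR-294-3p: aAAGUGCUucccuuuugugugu
miR-295-3p: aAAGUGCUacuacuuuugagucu
The whole seed AAGUGCU was shared by miR-295-3p, miR-291a-3p and miR-294-3p. Bases 2 to 7, AAGUGC, were shared by these 3 and by miR-290a-3p and miR-291b-3p. The 5′ end of miR-293-3p lies elsewhere in its arm, and its seed, GUGCCGC, was shared with no other 3p sequence shown.

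The 5p sequences are shown with the same capitals, since 3 of them carried 1 seed and yet gave 3 different outcomes on the same card.
miR-290a-5p: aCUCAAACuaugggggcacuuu
miR-291a-5p: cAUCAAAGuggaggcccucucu
miR-291b-5p: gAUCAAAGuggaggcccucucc
miR-292a-5p: aCUCAAACugggggcucuuuug
miR-293-5p: aCUCAAACugugugacauuuug
miR-294-5p: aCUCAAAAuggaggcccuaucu
miR-295-5p: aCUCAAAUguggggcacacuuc
The seed CUCAAAC was shared by miR-290a-5p, miR-292a-5p and miR-293-5p, and AUCAAAG by miR-291a-5p and miR-291b-5p. The 5p sequences of miR-294 and miR-295 each differed from CUCAAAC at the last seed base only.

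In RefSeq, on build GRCm38.p6, the hairpins lie on chromosome 7 within 2216 bases, 7 of them on the plus strand and 2, Mir290b and Mir292b, on the minus strand. The plus-strand order was Mir290a, Mir291a, Mir292, Mir291b, Mir293, Mir294 and Mir295, and the gene D7Ertd143e starts between Mir290a and Mir291a. The 3 hairpins for which both arms had a Ct are shown, with the mature arms in capitals, 5p first. They are Mir290a at chr7:3218626-3218708, Mir293 at chr7:3220343-3220422 and Mir295 at chr7:3220773-3220841, all on the plus strand.
Mir290a: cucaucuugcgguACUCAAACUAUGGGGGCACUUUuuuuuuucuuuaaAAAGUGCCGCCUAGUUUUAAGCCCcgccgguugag
Mir293: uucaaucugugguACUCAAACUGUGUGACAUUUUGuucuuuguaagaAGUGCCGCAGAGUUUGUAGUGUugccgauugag
Mir295: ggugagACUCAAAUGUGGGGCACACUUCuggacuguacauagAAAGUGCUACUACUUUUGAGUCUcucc
The stretch between the arms was 13 bases in Mir290a, 12 in Mir293 and 14 in Mir295. Of the remaining sequences, miR-291a-5p lies at chr7:3218932-3218953, miR-291a-3p at chr7:3218968-3218989 and miR-292a-5p at chr7:3219200-3219221. The hairpins Mir291b, at chr7:3219482-3219560, and Mir294, at chr7:3220641-3220724, hold the other arms listed above.

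In conditioned media, 10 of the 14 assays were detected, and in blank media none was. Each well gave a Ct, the PCR cycle number where the signal passed a set threshold, so that 1 cycle less stands for about a doubling of template. An assay was called detected at a Ct below 35, and a well without a Ct, given as undetermined, was taken as above this limit. The study's further limit on the fluorescence change, ΔRn, was not applied. Detection in conditioned media was found for 227 of the 567 mouse assays without # (40%), and detection in blank media for 31.9%. Detection in conditioned media only, the class that held all 10 detected cluster assays, was found for 14.1% of those 567. The cluster assays that were not detected, miR-290, miR-291-5p, miR-291b-3p and miR-292-5p, were undetermined in both media.

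The median Ct of the 10 detected assays was 25.6 in conditioned media, from 19.62 to 34.57. Other mouse assays without # that were detected had, in the same medium, a median of 22.2 on card B and 26.5 on card A. The cluster assays of card A had a median of 24.6 and those of card B 27.9, so that the cluster lay earlier than the rest on card A and later on card B. All 7 assays of card A were detected, where 42.1% of the mouse assays without # were, and 3 of the 7 of card B, where 37.1% were.

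Error could be measured only between wells and between assays. U6, a small nuclear RNA, was read in 4 wells of each card, and in conditioned media its Ct was 20.9 ± 0.68 (SD, n = 4 wells) for card A and 19.96 ± 0.83 for card B. For names with a pair of assays outside the cluster, both detected in the same medium, the pair differed by 1.25 to 14.7 cycles, with a median of 4.07 over 7 pairs of wells. The largest value, for miR-217, was read in blank media, and the largest in conditioned media was 7.42 cycles. Except for miR-136#, each pair set a card A assay against a card B assay. These differences thus also hold any difference between cards, which steps within a card do not. A difference between arms was therefore read against these 7 differences, since assays differ in efficiency and a difference in Ct between assays is not a ratio of amounts. The plot of both media shows every assay of the cluster.

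**Figure D1:**
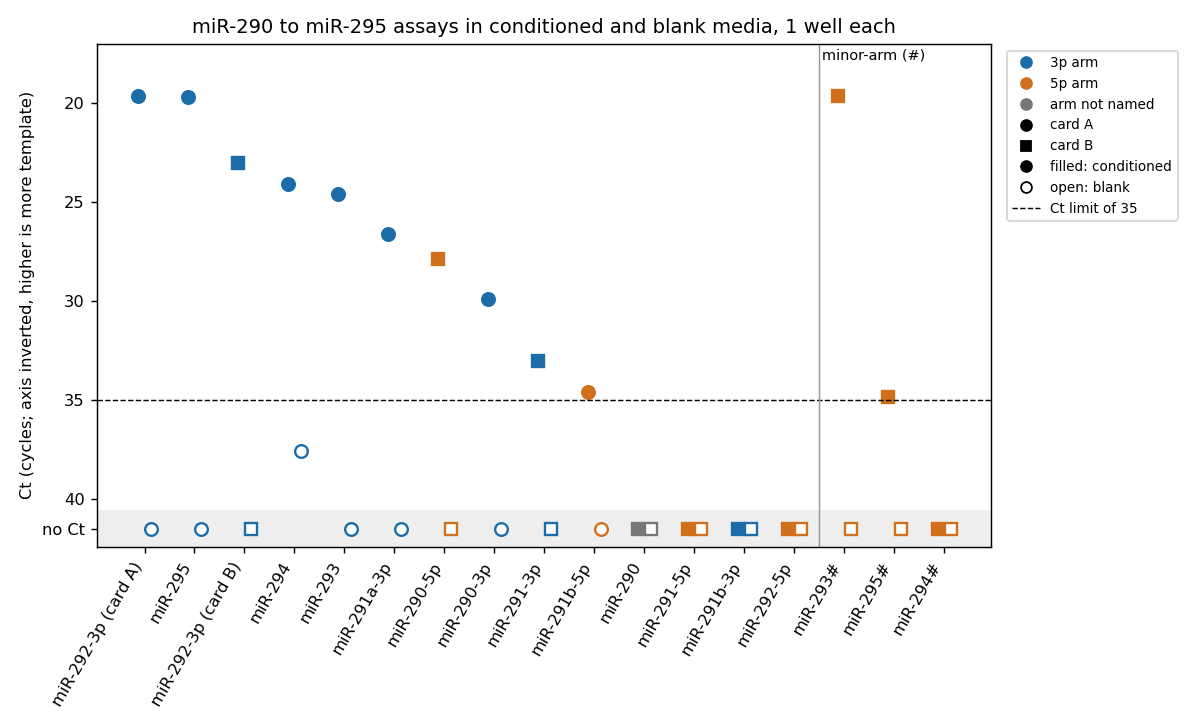
Ct of each miR-290 to miR-295 assay in conditioned (filled) and blank (open) media, 1 well each, on an inverted axis in cycles; blue is the 3p arm, orange the 5p arm, circles card A and squares card B, and wells without a Ct lie in the grey band. In conditioned media the 10 detected members lay between 19.62 and 34.57, and in blank media miR-294, at 37.58, was the 1 assay shown with a Ct.

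Arms of the same hairpin were compared in gene order, with the 3p Ct set against the 5p Ct in conditioned media. The unmarked assays of miR-293, miR-294 and miR-295 were taken as the 3p arm, as the study names them, and their # assays as the 5p arm. Neither arm of any hairpin was detected in blank media, so that the comparison rests on conditioned media alone.

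The 2 arms of miR-290 lay close to each other. The Ct of miR-290-5p was 27.87 on card B and that of miR-290-3p was 29.87 on card A, with both undetermined in blank media. The 5p arm was earlier by 2.005 cycles, a difference smaller than 6 of the 7 differences between assays of 1 name. Its direction depended on the card: relative to the median Ct of each card, the 5p arm was later by 0.82 cycles. A further assay on card B, named miR-290 without an arm, was undetermined in both media. No order of the arms of this hairpin can be read from these wells.

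The assays for miR-291 came with and without a letter. On card A, the Ct of miR-291a-3p was 26.62 in conditioned media, with none in the blank. On card B, miR-291-3p had a Ct of 33.025, and miR-291-5p was undetermined in both media. These card B assays name no letter, and the RefSeq 5p sequences of miR-291a and miR-291b differed at 2 of 22 bases. Within card B, the 3p arm was earlier than the 35-cycle limit by 1.975 cycles, so that the arms differed by at least this much. This bound was smaller than 6 of the 7 differences between assays of 1 name. The study's short list, filtered by Ct and ΔRn, holds miR-291a-3p and not miR-291-3p. With miR-291a-3p in place of miR-291-3p, the bound was 8.38 cycles, across the cards.

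The arms of miR-292 were far apart. The Ct of miR-292-3p was 19.62 on card A, the lowest of the 14 assays, and 23.02 in the second assay of that name on card B. The 5p assay on card B was undetermined in both media, as both 3p assays were in blank media. Within card B the 3p arm was earlier by at least 11.98 cycles, more than 6 of the 7 differences between assays of 1 name, and with the card A assay by at least 15.38, more than all 7. The 2 assays for miR-292-3p themselves differed by 3.40 cycles, within the range of the other pairs of assays.

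For miR-291b, the arm order was the opposite and the signal was late. The 5p arm, on card A, had a Ct of 34.57, and the 3p arm, on card B, was undetermined, with both undetermined in blank media. The 5p arm was thus earlier by at least 0.43 cycles, less than the SD of U6 on either card. All 7 differences between assays of 1 name were larger, and at a Ct limit of 32 neither arm was detected. The study's short list holds neither arm.

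By Ct alone, the arm of miR-293 marked as minor was the earlier one. The # assay, for the 5p arm, had a Ct of 19.63 on card B, and the unmarked assay, for the 3p arm, had a Ct of 24.58 on card A. Both were undetermined in blank media. The study also asked for a minimum fluorescence change, ΔRn, before it called a sequence detected, and the wells of this hairpin, miR-293# among them, were not checked for it here. The study's short list of sequences exclusive to conditioned media, filtered by Ct and ΔRn, holds miR-293 and not its 5p arm. The Ct values of miR-293# met the Ct limits of that list. The arm order of this hairpin thus rests on the Ct of 1 well for each arm. The 5p arm was earlier by 4.95 cycles, and 3 of the 7 differences between assays of 1 name were larger than this. Relative to U6 of each card the 5p arm was still earlier, by a difference of -4.01 cycles (5p minus 3p), and relative to the card median by -2.12. The direction was therefore kept under both scalings, while the size fell within the range seen between assays of 1 name. The medians of all other detected mouse assays without #, 26.5 on card A and 22.2 on card B, lay further apart than the card medians used here, which differed by 2.83 cycles. Scaling to those medians was not run.

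For miR-294 and miR-295, the 3p arm was the earlier one by a wide margin. The Ct of miR-294 was 24.10 in conditioned media, and its # assay was undetermined, so that the 3p arm was earlier by at least 10.9 cycles. The Ct of miR-295 was 19.67, and its # assay had a Ct of 34.82, just inside the limit, so that the 3p arm was earlier by 15.16 cycles. Of the 7 differences between assays of 1 name, 1 was larger than the bound of miR-294 and 0 were larger than the difference of miR-295. That 1 was the pair for miR-217, read in blank media. All 4 assays were above the limit or undetermined in blank media. In both hairpins the 3p assay was on card A and the 5p assay on card B, and relative to U6 or the card median the differences were larger.

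**Figure D2:**
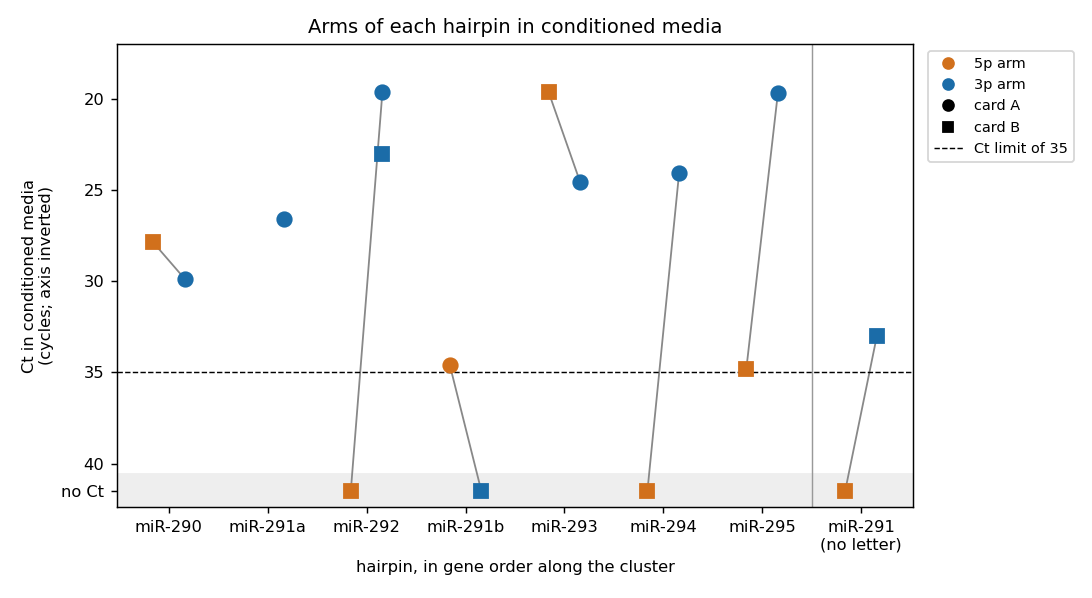
Ct of the 5p (orange) and 3p (blue) assays of each hairpin in conditioned media, 1 well each, on an inverted axis in cycles, with circles for card A, squares for card B and wells without a Ct in the grey band; lines join the arms with the lowest Ct. By Ct alone, the 3p arm was earlier for miR-292, miR-294, miR-295 and the miR-291 assays without a letter. The 5p arm was earlier for miR-290, miR-291b and miR-293. The miR-290 order turned relative to the card median, and the miR-291b bound was below the SD of U6. The 5p well of miR-293 was not checked for ΔRn. For miR-291a there was no 5p assay of its own.

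**Figure D3:**
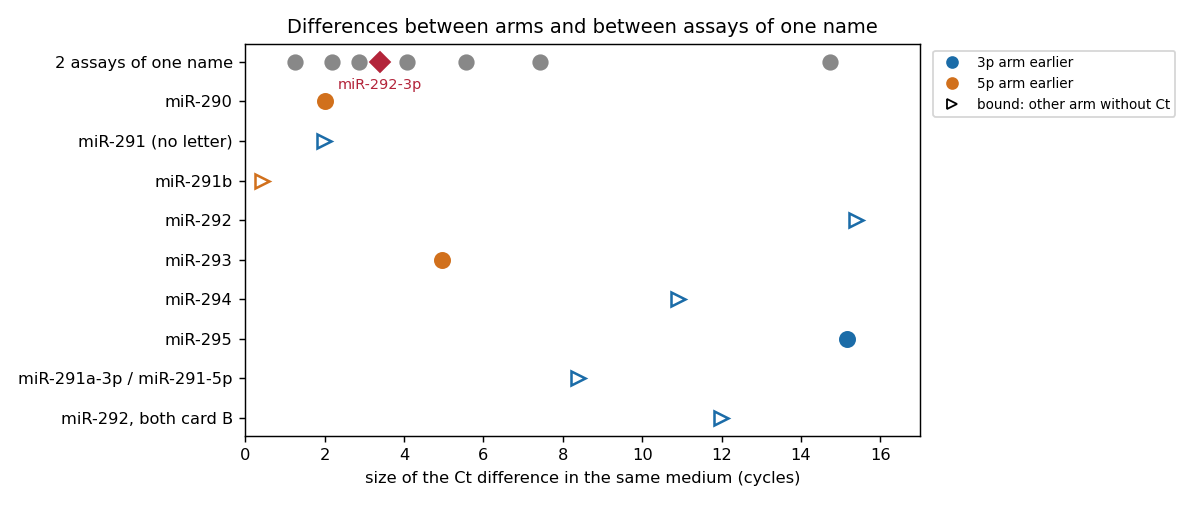
Size of the Ct difference in the same medium, in cycles, between pairs of assays of the same name (top row; grey for 7 pairs outside the cluster, red for miR-292-3p) and between the arms of each hairpin in conditioned media, with open triangles for bounds where 1 arm had no Ct. The bound of miR-292 (15.38) and the difference of miR-295 (15.16) lay beyond all 7 grey points, and the difference of miR-293 (4.95) lay among them. The grey point of the largest difference is a pair read in blank media.

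Counted by arm, 8 of the 9 3p assays were detected in conditioned media, with a median Ct of 24.3, and 2 of the 4 5p assays, with a median of 31.2. Of all mouse assays without #, 227 of 567 (40%) were detected, so that the 5p count lay near this share. With the 3 # assays added, 4 of 7 5p assays were detected, from 19.63 to 34.82, beside 27.8% of all mouse # assays. Arm and card moved together: 6 of the 9 3p assays but 1 of the 4 5p assays were on card A. Within card B, where 37.1% of the mouse assays without # were detected, 2 of 3 3p assays and 1 of 3 5p assays were, or 3 of 6 with the # assays. Within card A, where 42.1% were detected, all 6 3p assays and the 1 5p assay were. With so few assays of each arm on a card, the part of the card in the difference between arms was not tested.

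A # assay with an earlier Ct than its unmarked partner, as for miR-293, was also found outside the cluster. There, 92 pairs of a mouse assay and a # assay of the same name could be formed, a name with several assays giving several pairs, and in conditioned media both were detected in 18. In 14 of these 18 the # assay was the earlier one, with # minus unmarked from -17.0 to 6.22 cycles and a median of -2.90. In blank media, without embryos, both were detected in 7 pairs, and the # assay was earlier in all 7. These counts rest on Ct alone, as ΔRn was not checked. Some # wells were early in both media, such as miR-196a# at 9.40 in conditioned and 7.97 in blank media. Others were early in conditioned media only, such as miR-15b# at 14.07. In most of the 18, as for miR-293, the unmarked assay was on card A and the # assay on card B. In conditioned media, the card median of card A was 2.83 cycles later than that of card B. The part of the card in these differences was not tested. Among the 11 pairs in which neither Ct was below 19.62, the lowest of the cluster, the # assay was earlier in 7. The values of the cluster, -4.95 cycles for miR-293 and 15.16 for miR-295, thus lay within and beyond the range of the 18 pairs. Of all mouse # assays, 27.8% were detected in conditioned media, beside 2 of the 3 of the cluster. In 28 of the other pairs the unmarked assay alone was detected, as for miR-294, and in 9 the # assay alone.

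**Figure D4:**
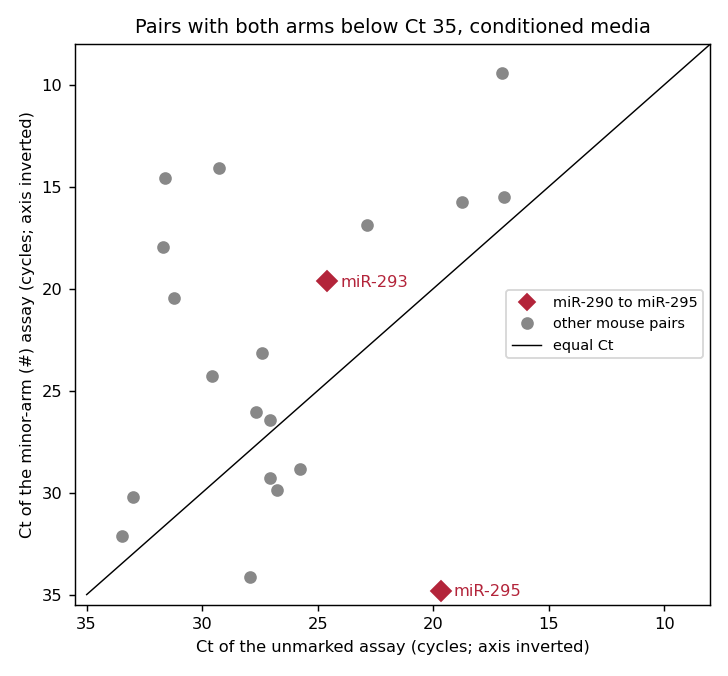
Ct of the minor-arm (#) assay against that of the unmarked assay of the same name in conditioned media, both axes inverted and in cycles, for mouse pairs with both assays below Ct 35; red diamonds are miR-293 and miR-295, grey points are the 18 pairs outside the cluster, and the line is equal Ct. By Ct alone, the # assay was earlier (above the line) for miR-293 and for 14 of the 18 other pairs, and miR-295 lay farthest below the line. Most pairs set an unmarked assay of card A against a # assay of card B.

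The -5p and -3p names of the array gave fewer values for comparison. Outside the cluster, 41 pairs of a -5p and a -3p mouse assay could be formed, and in conditioned media both arms were detected in 1 of them, the 5p arm alone for 8 and the 3p arm alone for 10. In blank media the counts were 1, 9 and 11. Detection of 1 arm alone, as for miR-292, was therefore found in both media for names outside the cluster, whereas no arm of the cluster was detected in blank media.

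Assays with the same seed did not have the same Ct. The 3 assays with the seed AAGUGCU were all on card A, where miR-295 had a Ct of 19.67, miR-294 of 24.10 and miR-291a-3p of 26.62, a span of 6.95 cycles. The step from miR-295 to miR-294 was 4.43 cycles and that from miR-294 to miR-291a-3p was 2.52, both more than the SD of U6 on that card, while 3 and 5 of the 7 differences between assays of 1 name were larger. The mature sequences of miR-291a-3p and miR-294-3p differed at 3 of 22 bases, 1 of them among the last 6, which the stem-loop primer of a TaqMan assay pairs with. Those of miR-294-3p and miR-295-3p, of 22 and 23 bases, differed at 10 of 22 positions when compared without gaps, all outside the seed. A comparison that allows gaps, which could lower this count, was not run. Whether an assay also read the template of a relative was not tested.

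Of the 3p assays matched to a sequence, the pair with 1 base of this seed exchanged were later or without a Ct, and miR-292-3p, the earliest 3p assay, was not matched and could not be placed. On card A, miR-290-3p, with the seed AAGUGCC, had a Ct of 29.87, later than all 3 assays with AAGUGCU. On card B, miR-291b-3p, with the seed AAGUGCA, was undetermined, although its mature sequence differed from that of miR-294-3p at only 3 of 22 bases. In contrast, miR-293, with the 3p seed GUGCCGC, had a Ct of 24.58 on card A, 0.48 cycles from that of miR-294 and within the SD of U6 on that card. The order of the 3p arms on card A, from earliest to latest, was miR-292-3p, miR-295, miR-294, miR-293, miR-291a-3p and miR-290-3p. In this order miR-292-3p and miR-295, 0.05 cycles apart, and miR-294 and miR-293 did not differ beyond the spread of U6. As U6 gives only the spread between wells of 1 assay, the rest of the order is one of Ct and not of amounts.

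The 5p arms with the seed CUCAAAC spread more widely. All 3 assays were on card B, where miR-293# had a Ct of 19.63, miR-290-5p of 27.87 and miR-292-5p none. The step from miR-293# to miR-290-5p was 8.24 cycles, more than the SD of U6 on that card and more than 6 of the 7 differences between assays of 1 name. It rests on Ct alone, as ΔRn was not checked for these wells. The mature sequences of miR-292a-5p and miR-293-5p, the latest and the earliest of the 3, differed at 5 of 22 bases, none of them in the seed and 1 among the last 6. The remaining 5p arms were just inside the limit, at 34.57 for miR-291b-5p and 34.82 for miR-295#, or had no Ct, as for miR-294# and miR-291-5p.

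Among mouse assays outside the cluster that were matched to a RefSeq sequence, 2 had the seed AAGUGCU, both of them for the miR-302 cluster, another cluster of embryonic stem cells. They lie on chromosome 3, at chr3:127545275-127545297 and chr3:127545665-127545687 of the plus strand, and are shown since they share the seed and not the pattern between media.
miR-302b-3p: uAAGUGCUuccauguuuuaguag
miR-302d-3p: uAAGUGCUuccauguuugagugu
On card A, miR-302b had a Ct of 27.07 in conditioned and 28.02 in blank media, a difference of -0.95 cycles (conditioned minus blank), and the Ct of miR-302d was 36.75 in conditioned media, with none in the blank. Of the 5 mouse assays for miR-302a to miR-302d and miR-367, 3 were detected in conditioned media and 3 in blank media, with 0 in conditioned media only. Of these 5, miR-302a, at 21.00 in conditioned and 22.22 in blank media, was not matched to a sequence. The miR-302b signal in blank media was thus present in a medium where no AAGUGCU assay of the miR-290 to miR-295 cluster was below the limit.

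The member with a Ct in both media was miR-294, at 24.10 in conditioned and 37.58 in blank media, a difference of -13.48 cycles. The blank value lay past the limit of 35, in the last cycles before the end at 40. U6 also had an earlier Ct in conditioned media, with a difference of means of -4.08 cycles on card A, where its 4 blank wells ranged from 20.2 to 27.1. Relative to the mean of U6, the difference of miR-294 was -9.40 cycles, and relative to its median -8.39, each larger than the SD of 3.22 between the blank U6 wells. For the other 9 detected members, all undetermined in blank media, no difference between media could be given.

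Of the whole array, 280 of 750 miRNA assays were detected in conditioned and 218 in blank media. Ct values below 19.62, the lowest of the cluster, were found for 81 assays in conditioned media and for 82 in blank media. By Ct alone, earlier wells than those of the cluster were thus present with and without embryos. These counts do not rank the cluster, as ΔRn was not checked for these wells. By Ct and ΔRn together, the study detected fewer sequences in each medium. Its short list of sequences exclusive to conditioned media holds no Ct below the lowest of the cluster. The study places the cluster above all other sequences that it detected on the array.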

How the data were processed

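Conditioned and blank media were measured once each by qPCR on 2 TaqMan miRNA cards (768 wells, 18 of them control wells). The authors deposited non-normalized Ct values, an inverted log2 scale. Their threshold settings are not given in sources used here. A deposited table of fold changes, the authors' own comparison of the media, was not used. The fluorescence change ΔRn was not analysed here. Pre-amplification for 12 cycles moves every Ct earlier.

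Detection was a Ct below 35. An undetermined arm was set at this limit to give a bound. Arms were paired by name, with miR-290 read as miR-290a and miR-292 as miR-292a through RefSeq synonyms, and seeds were compared in RefSeq sequences (GRCm38.p6). Every member, its # and rat-named partners, mouse assays with a member's seed, and U6 were named. The members and lists were chosen with earlier results of these data known. With 1 sample per medium, no test was run. Error came from U6 (4 wells per card) and from pairs of assays with one name. Alternatives were Ct limits of 32, 38 and any Ct, # or rat-named assays counted, scaling to U6 or to card medians, an undetermined Ct set to 40, and another choice among assays of 1 arm. Card medians were taken over the miRNA assays detected in both media. The counting was tested on simulated data. Python 3.11.15, numpy 2.4.6 and matplotlib 3.10.9 were used.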

Additional observations from a re-analysis of the deposited data

Results flagged for a closer look

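The rat-named assays of the cluster, on card B, were outside the comparison of arms. The Ct of rno-miR-293 was 9.01 in conditioned media, with none in the blank, and this assay was picked out as a signal in an assay that no comparison used, above that of the blank medium. It was 15.6 cycles earlier than the mouse miR-293 assay, at 24.58. The other rat-named assay, rno-miR-294, had the opposite pattern, with a Ct of 6.86 in blank media and none in conditioned media. Whether these wells read templates of the cluster was not tested.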

How the results depend on the processing

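Of 48 alternative values, 23 stayed within the U6 spread of 0.83 cycles (SD) or, for counts, near the reported count, 24 moved further and 1 turned its direction. That 1 was the arm difference of miR-290 (5p minus 3p), which was 0.82 cycles relative to the card median. The members detected in conditioned media ranged from 8, at a Ct limit of 32, to 12, with # assays counted. In blank media 1 was detected at a limit of 38, at any Ct, or with rat-named assays counted. Of the 5p assays, 1 was detected at a limit of 32, and 4 with # assays. Relative to U6 of each card, the arm differences were -1.07 cycles for miR-290, -1.37 for miR-291b, 16.3 for miR-292, -4.01 for miR-293, 11.8 for miR-294 and 16.1 for miR-295. Relative to the card median they were -3.26 for miR-291b, 18.2 for miR-292, -2.12 for miR-293, 13.7 for miR-294 and 17.99 for miR-295. With an undetermined Ct set to 40, they were 6.98 for miR-291 without a letter, -5.43 for miR-291b, 20.4 for miR-292 and 15.9 for miR-294. With the later of the 2 assays for miR-292-3p the bound was 11.98, and with miR-291a-3p in place of miR-291-3p, a choice made after seeing the data, it was 8.38. The difference of miR-294 between media was -9.40 cycles relative to the mean and -8.39 relative to the median of U6. The 23 include values that a setting could not change, namely the 6.95-cycle span of the AAGUGCU assays, all early and on card A, and card scaling for miR-291 without a letter, both arms of which were on card B. No paired analysis was possible because each medium had 1 sample. The wells gave no count of molecules, and a missing Ct in 1 well does not show that a sequence was absent.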
